A study of Homo sapiens with 3 samples.

Results

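The 10 functional genes of the human alpha-like and beta-like globin clusters are described here across a TRAF7 knockdown experiment. They were chosen by name, as the members of both clusters, from the 58735 genes in the files. HBZ, HBM, HBA2, HBA1 and HBQ1 form the alpha-like cluster on chromosome 16, and HBE1, HBG2, HBG1, HBD and HBB the beta-like cluster on chromosome 11. RNA was sequenced from cells labelled KG1a, a human acute myeloid leukaemia line usually known as an immature, CD34+ subline. The knockdown cells, 2 libraries, had the labelled genotype TRAF7 knockdown and were infected with shTRAF7 lentivirus, which carries a short hairpin RNA against TRAF7, an E3 ubiquitin ligase. The control cells, 1 library, had the labelled genotype wild type and were infected with shCtrl lentivirus. The comparison asks which transcripts differ when TRAF7 is depleted. The labels do not say whether the knockdown libraries carry the same hairpin or come from separate cultures, so p-values measure only the spread between these libraries, which may be technical.

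Haemoglobin is built from a pair of alpha-like and a pair of beta-like chains, each holding a haem group. In both clusters the genes are used in turn during development: zeta (HBZ) and epsilon (HBE1) globin in the embryo, gamma globin (HBG1, HBG2) in the fetus, delta (HBD) and beta (HBB) globin after birth, and alpha globin (HBA1, HBA2) from the fetus on. Distant enhancers bound by GATA1, KLF1 and NFE2 drive each cluster in erythroid cells, and BCL11A and ZBTB7A silence gamma globin in the adult. In most other blood cells the genes are close to silent.

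Assigned reads numbered 16221721 in knockdown 1, 16254461 in knockdown 2 and 16014485 in the control. TRAF7 itself was at 15.6 FPKM in knockdown 1, 18.3 FPKM in knockdown 2 and 46.5 FPKM in the control, so both knockdown libraries fit their labels. FPKM counts reads relative to exon length and library size, here after the authors' own scaling between libraries. The libraries did not show the marker by which KG1a is best known: CD34 had 1 read in knockdown 1, 10 reads in knockdown 2 and 0 reads in the control. CD38, also listed with the progenitor genes, had at most 1 read, which is not counted against the label. PTPRC, the pan-leukocyte antigen CD45, was at 5.60 and 6.53 FPKM in the knockdown libraries and 9.54 FPKM in the control, and SPN, the sialophorin CD43, at 45.3, 32.9 and 46.2 FPKM. Erythroid genes were present in all 3 libraries. GATA1 was at 104.5 and 115.6 FPKM in the knockdown libraries and 128.5 FPKM in the control, and RHAG, a component of the red cell Rh complex, at 228.1, 229.0 and 208.1 FPKM. The globin genes are therefore described in cells whose transcripts go against the label in part, and the cells are called by their label only.

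Several members are near-copies of each other, which decides how far their reads can be told apart. HBA1 and HBA2 have the same coding sequence, 429 of 429 bases, and the same 37 bases of 5′ untranslated region, and they differ at 19 of the 110 aligned bases of the 3′ untranslated region. HBZ shares 70.3% and HBQ1 73.8% of aligned coding bases with HBA1. HBG1 and HBG2 share 442 of 444 coding bases and differ by C227T and C410G, counted from the first coding base with the base of HBG1 given first, in codons 76 and 137. The first 60 coding bases of HBA1 (GRCh38 chr16:176717-176776, plus strand), which HBA2 repeats base for base at chr16:172913-172972, are shown with those of HBZ (chr16:152910-152969, plus strand) and HBQ1 (chr16:180487-180546, plus strand). Capitals mark bases that differ from HBA1, 27 in HBZ and 28 in HBQ1. The stretches of HBG1 (chr11:5249427-5249486, minus strand) and HBG2 (chr11:5254351-5254410, minus strand) cover coding bases 197 to 256, and the capital marks the C227T difference.
HBA1: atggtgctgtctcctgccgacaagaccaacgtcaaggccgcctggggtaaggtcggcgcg
HBZ: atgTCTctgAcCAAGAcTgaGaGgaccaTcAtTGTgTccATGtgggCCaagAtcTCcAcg
HBQ1: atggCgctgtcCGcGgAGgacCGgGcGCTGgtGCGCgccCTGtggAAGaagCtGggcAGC
HBG1: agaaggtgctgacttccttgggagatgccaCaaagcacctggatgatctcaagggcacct
HBG2: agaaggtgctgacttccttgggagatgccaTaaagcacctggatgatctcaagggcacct

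Of all stretches of 50 bases in the transcript, 18.4% in HBA1, 18.2% in HBA2, 33.0% in HBG1 and 21.4% in HBG2 occur in no other annotated gene. The share was 15.7% for HBE1, 56.4% for HBZ, 97.0% for HBD and 97.1% for HBB, and 100% for HBM and HBQ1. The counting rule for reads that match more than 1 gene is not given in the sources used, so the split within the alpha pair and within the gamma pair is uncertain and their sums are given too. Some annotated exons also overlap other genes: only 96 of the 961 exon bases of HBE1 and 371 of 869 of HBG2 belong to no other gene. The same holds for 506 of 916 exon bases of HBM and 550 of 755 of HBZ, which share 205 bases, for 1182 of 1270 of HBD and 1441 of 1659 of HBG1, and for all bases of HBA1, HBA2, HBQ1 and HBB.

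Summed globin transcript was higher in both knockdown libraries than in the control, and among the abundant genes alpha globin differed most. Of the 10 genes, 8 were higher in both knockdown libraries, which were compared with the same control: all 5 alpha-like genes and 3 of 5 beta-like genes (HBG1, HBG2 and HBD). HBE1 was lower in both and HBB lay on opposite sides of the control. Of the 12640 genes averaging 1 FPKM or more (the genes measured), 42.5% were higher in both. That filter left out HBM, HBE1 and HBB. All 7 globin genes that passed it were higher in both, HBD passing only through its knockdown level. Among the 258 other genes in the level and length range of the 6 globin genes averaging 5 FPKM or more, 74.0% were higher in both. HBA1, HBA2 and HBG1 were at least 2-fold higher in both, as were 1.06% of the 12640 genes. The 10 genes summed to 399.4 FPKM in knockdown 1 and 391.1 FPKM in knockdown 2, against 188.8 FPKM in the control, a ratio of 2.09 ± 0.031 (SD over the 2 knockdown libraries). They took 0.0340% and 0.0342% of assigned reads in the knockdown libraries and 0.0172% in the control. In bulk RNA, more cells that hold globin transcripts and more transcript per cell cannot be told apart.

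**Figure D1:**
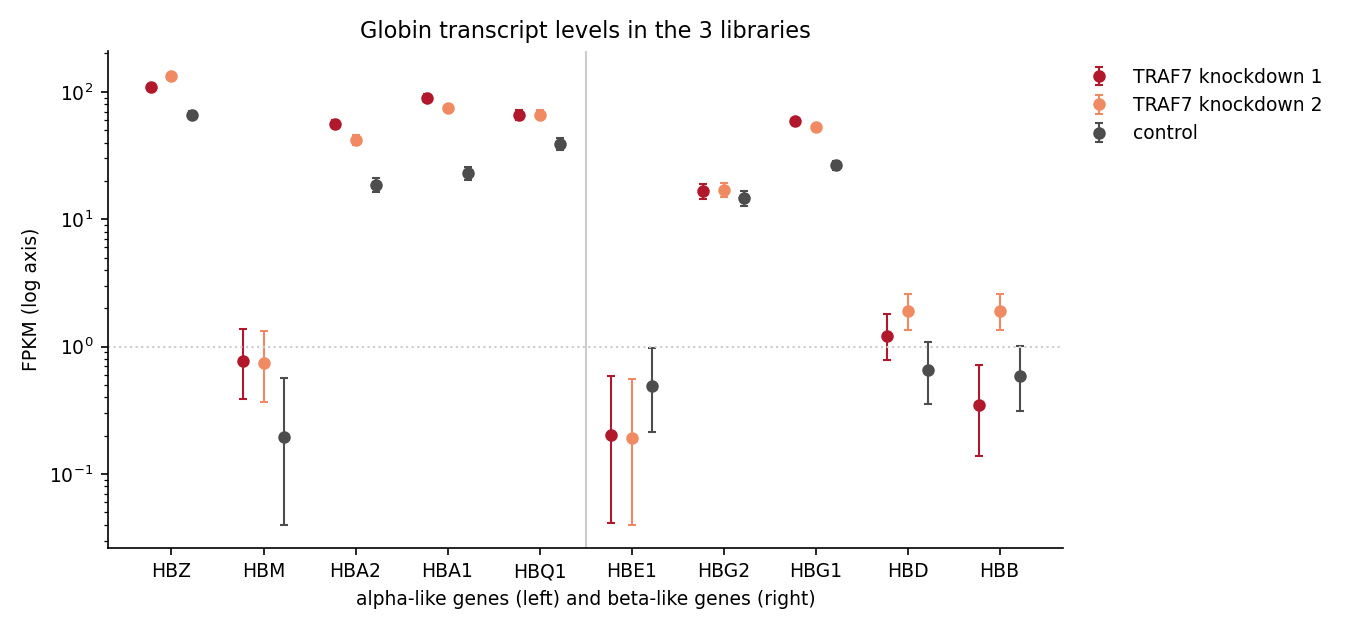
Level of each globin gene (FPKM, log axis) in TRAF7 knockdown 1, TRAF7 knockdown 2 and the control, alpha-like genes on the left and beta-like genes on the right. Bars are 95% Poisson limits of the reads behind each value, which cover counting error only, and the dotted line marks 1 FPKM. HBZ, HBA2, HBA1, HBQ1 and HBG1 stood above the control in both knockdown libraries with no overlap of intervals. Such separation was not counted over all genes, and genes outside the family, such as SNRNP25 and DNMT1, also showed it. HBM, HBE1, HBD and HBB lay near or under 1 FPKM.

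HBZ, which encodes zeta globin, the embryonic alpha-like chain, had the highest FPKM of any single globin gene in all 3 libraries. This order depends on the annotated exon length, 755 bases for HBZ and 1659 for HBG1. In knockdown 1, HBG1 had more reads than HBZ, 1520 against 1286. HBA1 and HBA2, which share 1 coding sequence, summed to 146.35 FPKM in knockdown 1, above HBZ. Their sums of 116.69 FPKM in knockdown 2 and 41.39 FPKM in the control lay below it. HBZ (chromosome 16, 152687 to 154503, GRCh38) was at 109.4 FPKM (95% Poisson interval 103.5 to 115.6) in knockdown 1 and 133.0 FPKM (126.6 to 139.6) in knockdown 2, against 65.7 FPKM (61.3 to 70.3) in the control. Both knockdown libraries lay above the control, and the second lay above the first by a ratio of 1.22 (95% interval 1.13 to 1.31). The ratio to the control was 1.67 (1.53 to 1.82) in knockdown 1 and 2.03 (1.86 to 2.20) in knockdown 2. These intervals, like all others here, come from exact binomial or Poisson limits on the recovered reads and cover counting error only.

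The alpha globin pair, the alpha-like chains of fetal and adult haemoglobin, differed more than zeta globin in both knockdown libraries. HBA1 (chromosome 16, 176680 to 177522) was at 90.2 FPKM (85.1 to 95.5) in knockdown 1 and 74.8 FPKM (70.2 to 79.5) in knockdown 2, against 22.9 FPKM (20.5 to 25.6) in the control. HBA2 (chromosome 16, 172876 to 173710) was at 56.2 FPKM (52.2 to 60.4) in knockdown 1 and 41.9 FPKM (38.5 to 45.5) in knockdown 2, against 18.5 FPKM (16.3 to 20.9) in the control. For both genes the knockdown libraries stood clear of the control, and knockdown 1 was the higher of them, the reverse of their order for HBZ. The ratios to the control were 3.94 (3.48 to 4.47) and 3.26 (2.88 to 3.71) for HBA1, and 3.04 (2.63 to 3.52) and 2.27 (1.96 to 2.64) for HBA2. Summed over the pair, 1895 reads in knockdown 1 and 1579 reads in knockdown 2 against 581 reads in the control gave ratios of 3.54 (3.22 to 3.89) and 2.82 (2.56 to 3.11). HBA1 supplied 61.8% (95% Clopper-Pearson interval 59.6 to 64.0) and 64.3% (61.9 to 66.6) of the pair's reads in the knockdown libraries and 55.6% (51.4 to 59.7) in the control.

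Theta globin (HBQ1), an alpha-like gene at the 3′ end of the cluster with no established place in haemoglobin, was close to equal in the knockdown libraries, with a ratio of 1.01 (0.897 to 1.14) of the second to the first. HBQ1 (chromosome 16, 180453 to 181181) was at 65.7 FPKM (60.3 to 71.4) in knockdown 1 and 66.3 FPKM (61.0 to 71.9) in knockdown 2, against 38.8 FPKM (34.8 to 43.1) in the control. Its ratios to the control were 1.69 (1.48 to 1.94) and 1.71 (1.49 to 1.96). HBM (chromosome 16, 153892 to 166768), the mu globin gene, a minor alpha-like gene, was barely detected: 11 reads in each knockdown library and 3 reads in the control, or 0.772, 0.738 and 0.194 FPKM. Its ratios were 3.98 (1.05 to 22.2) and 3.81 (1.01 to 21.3), too wide to place it among the other alpha-like genes.

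Among the beta-like genes the fetal gamma pair made up nearly all transcript as assigned, and its members differed from the control by unlike amounts. HBG1 (chromosome 11, 5248079 to 5249859) was at 58.9 FPKM (55.9 to 61.9) in knockdown 1 and 53.3 FPKM (50.6 to 56.2) in knockdown 2, against 26.4 FPKM (24.5 to 28.4) in the control, ratios of 2.23 (2.04 to 2.44) and 2.02 (1.85 to 2.21). HBG2 (chromosome 11, 5253190 to 5505605 as annotated) was at 16.6 FPKM (14.5 to 18.9) in knockdown 1 and 17.1 FPKM (15.0 to 19.3) in knockdown 2, against 14.6 FPKM (12.7 to 16.7) in the control. The intervals of HBG2 overlapped across all 3 libraries, and its ratios of 1.14 (0.937 to 1.38) and 1.17 (0.969 to 1.41) both include 1. HBG1 accounted for 87.2% (85.5 to 88.7) and 85.7% (83.9 to 87.3) of the pair's reads in the knockdown libraries and 77.6% (74.8 to 80.2) in the control. Its annotated exons are longer, and its share of the pair's FPKM was 78.0% and 75.8% in the knockdown libraries and 64.4% in the control. AC104389.5, an annotated gene that shares 433 exon bases with HBG2 and 218 with HBG1, had 97 and 58 reads in the knockdown libraries and 68 in the control. Its part in the unequal change of the gamma genes was not tested.

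The embryonic, minor adult and adult beta-like genes were near the detection limit. HBE1 (chromosome 11, 5268345 to 5505652 as annotated), epsilon globin, had 3 reads in each knockdown library and 8 in the control, or 0.201, 0.192 and 0.493 FPKM, and its ratios of 0.407 (0.0695 to 1.69) and 0.389 (0.0665 to 1.62) do not separate it from no difference. HBD (chromosome 11, 5232678 to 5243657), delta globin, was at 1.21 FPKM (0.778 to 1.81) in knockdown 1 and 1.89 FPKM (1.34 to 2.58) in knockdown 2, against 0.653 FPKM (0.357 to 1.10) in the control. Its ratios were 1.86 (0.924 to 3.89) and 2.89 (1.54 to 5.77), and only the second interval lies above 1. HBB (chromosome 11, 5225464 to 5229395), adult beta globin, was at 0.345 FPKM (0.139 to 0.711) in knockdown 1 and 1.89 FPKM (1.35 to 2.57) in knockdown 2, against 0.590 FPKM (0.314 to 1.01) in the control. The knockdown libraries differed in HBB by a ratio of 5.47 (2.42 to 14.5), from 40 reads in the second and 7 in the first, more than either differed from the control. The ratios of HBB to the control were 0.584 (0.197 to 1.58) in knockdown 1 and 3.19 (1.67 to 6.51) in knockdown 2, so the knockdown libraries did not share a direction. For HBE1 a difference from the control was not detectable with these reads. Most of its exon bases overlap other genes, and how far the handling of shared reads lowered its count was not tested.

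**Figure D2:**
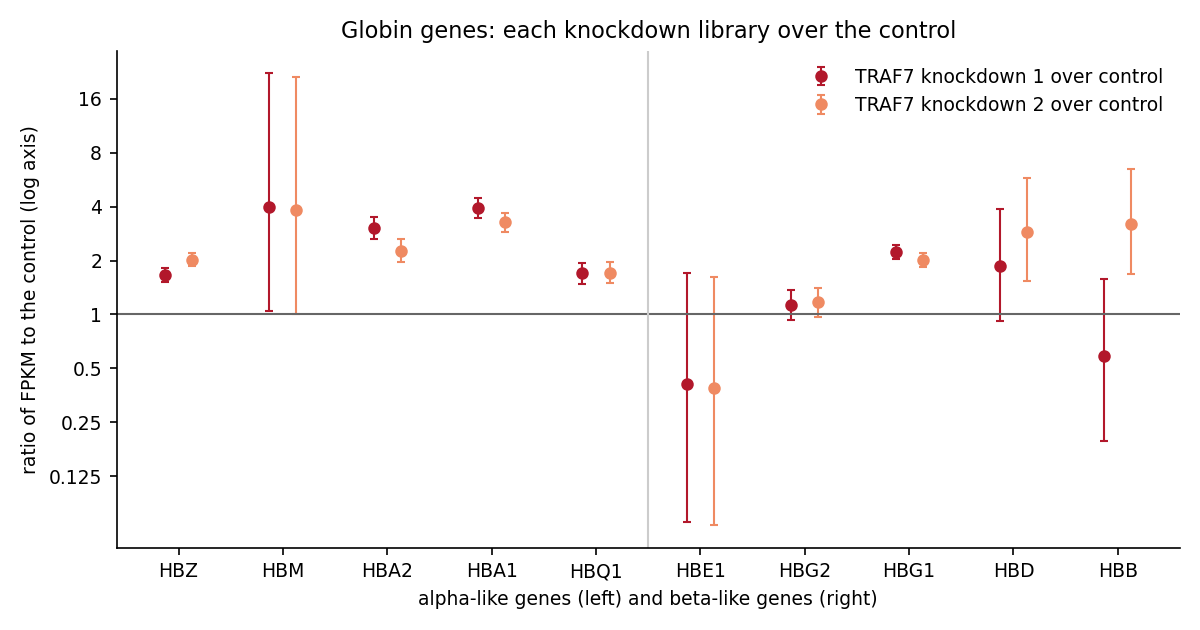
Ratio of FPKM in TRAF7 knockdown 1 and TRAF7 knockdown 2 to the control for each globin gene (log axis), with exact 95% intervals of the read ratio, which cover counting error only. Alpha-like genes are on the left and beta-like genes on the right. HBA1 stood highest among the abundant genes at 3.94 and 3.26. HBG2 lay just above 1 at 1.14 and 1.17, with intervals that include 1, and HBB lay on both sides of 1.

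In order of FPKM, taken gene by gene, HBZ led in every library, and this order depends on the exon lengths used. In the knockdown libraries HBA1 came next, at 90.2 and 74.8 FPKM, followed by HBQ1, HBG1 and HBA2. In the control HBQ1 came next, at 38.8 FPKM, followed by HBG1, HBA1 and HBA2. HBG2 was sixth in all 3 libraries. Some neighbours in that order had overlapping counting intervals: HBQ1 with HBG1 and HBG1 with HBA2 in knockdown 1, HBA1 with HBQ1 in knockdown 2, and HBG1 with HBA1, HBA1 with HBA2 and HBA2 with HBG2 in the control. HBD, HBB, HBM and HBE1 filled the lowest places, with overlapping intervals in the control.

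Alpha globin made up a larger part of the globin transcripts in the knockdown libraries. HBA1 held 22.6% and 19.1% of the summed globin FPKM in the knockdown libraries and 12.1% in the control, and HBA2 14.1% and 10.7% against 9.79%. HBQ1 held 16.4% and 17.0% in the knockdown libraries and 20.5% in the control, and HBG2 4.15% and 4.36% against 7.73%. HBZ held 27.4% in knockdown 1, 34.0% in knockdown 2 and 34.8% in the control. HBG1 held 14.7% in knockdown 1, 13.6% in knockdown 2 and 14.0% in the control. The alpha-like genes summed to 322.3 and 316.8 FPKM in the knockdown libraries and 146.0 FPKM in the control, a ratio of 2.19 ± 0.027 (SD, n = 2 knockdown libraries). The beta-like genes summed to 77.2 and 74.4 FPKM in the knockdown libraries and 42.7 FPKM in the control, a ratio of 1.77 ± 0.047 (SD, n = 2 knockdown libraries). In summed FPKM as assigned, alpha-like exceeded beta-like transcript 4.17-fold and 4.26-fold in the knockdown libraries and 3.42-fold in the control. The size of this excess depends on the exon lengths used. These were 1659 bases for HBG1 and 835 for HBA1, whose shortest principal transcripts have 779 and 577. In reads the excess was smaller: 3740 against 1778 in knockdown 1, 3801 against 1762 in knockdown 2 and 1772 against 989 in the control.

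**Figure D3:**
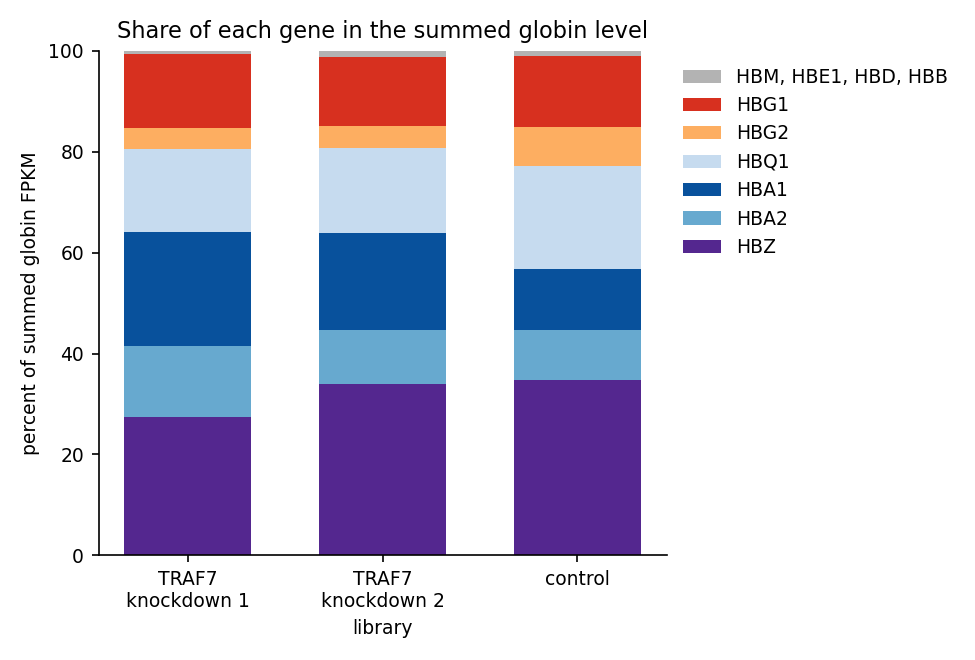
Share of each gene in the summed FPKM of the 10 globin genes, in percent, in TRAF7 knockdown 1, TRAF7 knockdown 2 and the control; HBM, HBE1, HBD and HBB are drawn together. HBA1 and HBA2 took a larger share in both knockdown libraries than in the control, and HBQ1 and HBG2 a smaller one.

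Against the spread between libraries, the evidence depends on the test. limma with an intensity trend on log2(FPKM + 1), in which the 2 knockdown libraries supply the only residual degree of freedom and the lone control is assumed to vary as they do, called 0 of 12640 genes at an adjusted p of 0.05, or 0.0%. The fitted log2 fold change, knockdown minus control, was 1.80 ± 0.19 (SE) for HBA1, with an adjusted p of 0.206, the lowest value that any gene tested reached, which genes with neighbouring ranks shared. It was 1.35 ± 0.23 (SE; adjusted p = 0.371) for HBA2, 1.06 ± 0.17 (SE; adjusted p = 0.369) for HBG1 and 0.87 ± 0.18 (SE; adjusted p = 0.403) for HBZ. HBQ1 followed at 0.75 ± 0.16 (SE; adjusted p = 0.403), HBD at 0.61 ± 0.29 and HBG2 at 0.19 ± 0.18 (SE; adjusted p = 0.584 and 0.761 by limma). Unadjusted, 5 of the 7 globin genes tested had a limma p under 0.05, as had 9.19% of all genes tested. Their median log2 fold change was 0.87, against 0.04 over all genes tested, where HBD entered only through the level of the knockdown libraries. By rank of p the globin genes stood 5th (HBA1), 34th (HBG1), 38th (HBA2), 96th (HBZ) and 111th (HBQ1) among the 12640.

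limma-voom, which weights recovered reads by their precision, also had only 1 residual degree of freedom. To this it added 32.7 prior degrees of freedom borrowed across genes, so its small p-values rest mostly on the spread of other genes. The test called 126 of 15034 genes, 27 of them higher, or 0.18%. It called 4 of the 8 globin genes it tested, all higher: HBA1 (log2 fold change 1.82, adjusted p = 2.79e-05), HBA2 (1.37, adjusted p = 0.00331), HBG1 (1.07, adjusted p = 0.00484) and HBZ (0.86, adjusted p = 0.0340). HBQ1 (0.75, adjusted p = 0.126), HBD (1.17, adjusted p = 0.531), HBB (0.45, adjusted p = 0.896) and HBG2 (0.19, adjusted p = 0.872) did not pass. With the copies of each pair summed into 1 feature, limma-voom gave 1.64 for alpha globin (adjusted p = 2.87e-05) and 0.91 for gamma globin (adjusted p = 0.0176), while limma gave an adjusted p of 0.263 and 0.405.

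**Figure D4:**
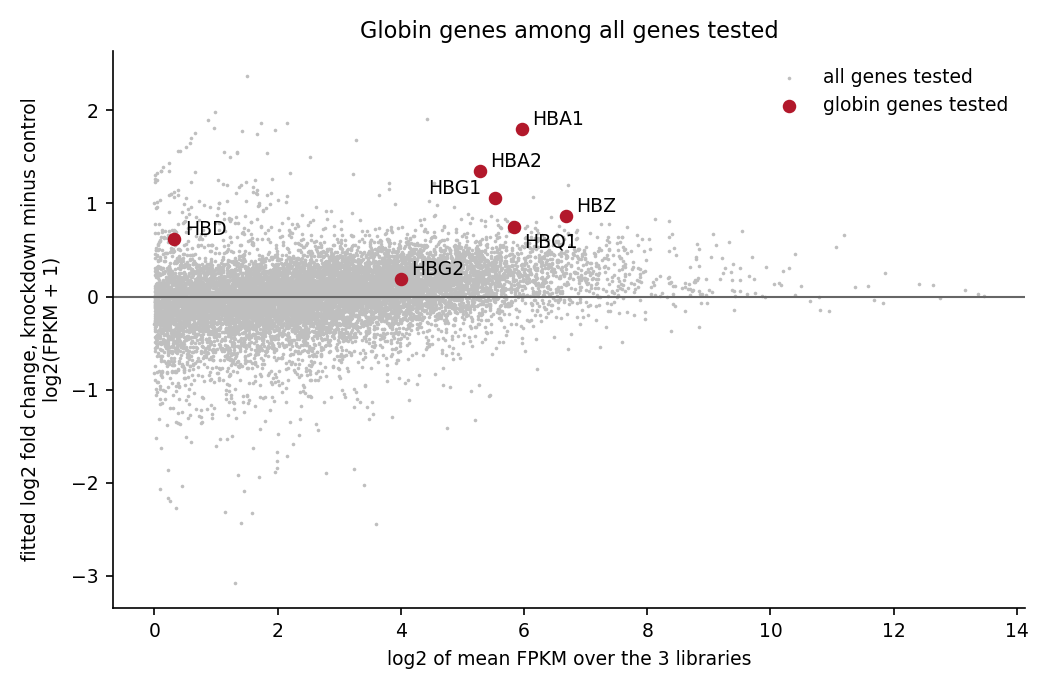
Fitted log2 fold change (knockdown minus control, on log2(FPKM + 1)) against log2 of the mean FPKM over the 3 libraries, for the 12640 genes tested, with the 7 globin genes tested in red. HBA1 stood at 1.80, HBA2 at 1.35 and HBG1 at 1.06, and HBG2 lay within the bulk of genes at 0.19.

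Level and length moved with the comparison across all genes. The 6 globin genes averaging 5 FPKM or more had means of 16.1 to 102.7 FPKM and exon lengths of 536 to 1659 bases. The other 2659 genes in that range of levels had a median log2 fold change of 0.18, and 64.6% were higher in both knockdown libraries. The 258 of them that also lay in that range of lengths had a median of 0.28, and 74.0% were higher in both. HBG2, at 0.19, lay between these medians. The part of transcript level and length in the globin values was not tested.

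Genes beside and between the globin genes were measured for comparison. SNRNP25, which encodes a protein of the minor spliceosome and lies upstream of HBZ on chromosome 16 (53010 to 57669), was at 30.1 and 25.0 FPKM in the knockdown libraries and 14.7 FPKM in the control. Its log2 fold change was 0.86 ± 0.20 (SE; adjusted p = 0.403 by limma and 0.0282 by limma-voom). POLR3K, a subunit of RNA polymerase III next to it, was at 33.1 and 25.4 FPKM in the knockdown libraries and 19.4 FPKM in the control, a log2 fold change of 0.56 (adjusted p = 0.536 by limma). LUC7L, on the other side of the cluster, was at 11.7 and 8.96 FPKM in the knockdown libraries and 8.65 FPKM in the control, and AXIN1, a scaffold of the beta-catenin destruction complex, at 12.4, 10.6 and 9.95 FPKM. NPRL3, whose introns hold the enhancers of the alpha cluster, was at 14.9 and 16.2 FPKM in the knockdown libraries and 14.1 FPKM in the control. Of the 8 measured among 11 neighbours, 6 were higher in both knockdown libraries, 1 (SNRNP25) was called by limma-voom and 0 by limma. Their median log2 fold change was 0.16. For comparison, 42.5% of all genes measured were higher in both, as were 64.6% of the genes in the level range of the 6 globin genes.

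Within the beta-like cluster, HBBP1 and BGLT3 did not lie to 1 side of the control in both knockdown libraries. HBBP1, a beta globin pseudogene, was at 1.28 and 1.40 FPKM in the knockdown libraries and 1.34 FPKM in the control, from 29, 33 and 33 reads. BGLT3, a noncoding RNA gene beside HBG1, was at 3.24 and 1.92 FPKM in the knockdown libraries and 2.62 FPKM in the control. HBZP1 had 1 read in all, in the control, and HBAP1 was listed at 0. Olfactory receptor genes lie within the annotated span of HBG2 and HBE1, and OR51B5, whose exons overlap both, was at 39.1 and 42.2 FPKM in the knockdown libraries and 36.2 FPKM in the control. Of the 9 protein-coding olfactory receptor genes there, 3 were higher and 2 lower in both knockdown libraries. The globins outside the clusters were close to absent: CYGB, cytoglobin, had 3 and 4 reads in the knockdown libraries and 4 in the control, MB, myoglobin, had at most 2 reads, and NGB, neuroglobin, was listed at 0.

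None of the regulators or haem genes listed here passed limma or limma-voom, and none had an unadjusted limma p under 0.05. Among 26 measured of 27 genes of globin switching and silencing, 13 were higher and 2 lower in both knockdown libraries, and the median log2 fold change was 0.09. Over all genes measured, 42.5% were higher in both and the median was 0.04. DAXX, a histone H3.3 chaperone, was at 34.0 and 29.8 FPKM in the knockdown libraries and 24.6 FPKM in the control. DNMT1, the maintenance DNA methyltransferase, was at 53.4 and 44.9 FPKM against 38.9 FPKM, HBS1L, which lies beside MYB, at 7.51 and 7.78 FPKM against 6.003 FPKM, and GATAD2A, a subunit of the NuRD complex, at 44.7 and 32.6 FPKM against 30.2 FPKM. Their log2 fold changes were 0.36, 0.32, 0.30 and 0.33, with adjusted p of 0.602 to 0.701 by limma. BCL11A had 1 read in all, in knockdown 2, and ZBTB7A was at 10.3 and 8.83 FPKM in the knockdown libraries and 9.99 FPKM in the control.

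The 15 activators of the erythroid programme and the locus control regions were all measured; 6 were higher and 4 lower in both knockdown libraries, and the median log2 fold change was −0.05. TCF3, a partner of TAL1, had a log2 fold change of 0.38, GATA2 of 0.21, GATA1 of −0.22 and LDB1, which bridges enhancers and promoters, of −0.22, with adjusted p of 0.645 to 0.728 by limma. KLF1, an activator of adult beta globin, was at 61.7 and 55.8 FPKM in the knockdown libraries and 56.5 FPKM in the control. Among 13 measured of 15 genes of haemoglobin assembly and haem supply, 8 were higher and 2 lower in both, and the median was 0.17. The share of all genes measured that were higher in both was 42.5%, with a median of 0.04. CPOX (0.41), ABCB10 (0.36) and UROD (0.22), all of haem synthesis or its supply, had positive log2 fold changes. ALAS2, the erythroid enzyme of the first step of haem synthesis, was at 6.99 and 9.13 FPKM in the knockdown libraries and 11.2 FPKM in the control, a log2 fold change of −0.44, and the adjusted p of these 4 genes was 0.560 to 0.676 by limma. AHSP, the chaperone of free alpha globin chains, had 7 and 5 reads in the knockdown libraries and 4 in the control.

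**Figure D5:**
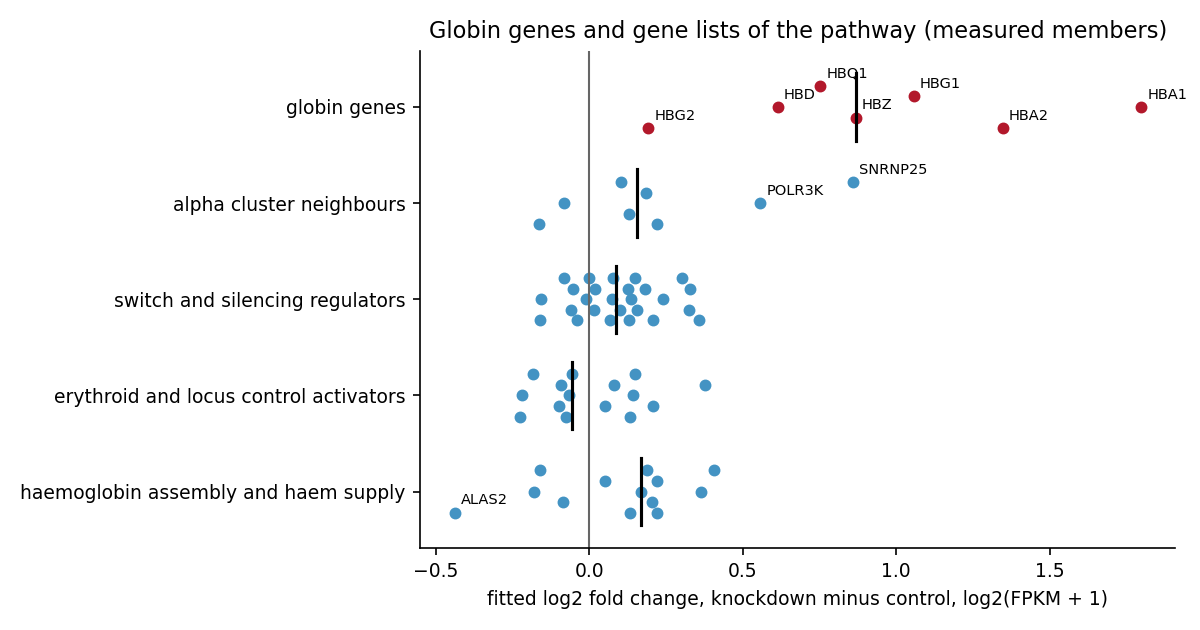
Fitted log2 fold changes (knockdown minus control, on log2(FPKM + 1)) of the measured globin genes, the neighbours of the alpha cluster and 3 lists of regulators and haem genes; each point is 1 gene and each black bar the median of the list. The globin median was 0.87 and the medians of the other lists lay between −0.05 and 0.17.

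Markers of red cells other than globin genes, 11 in number, summed to 274.7 and 288.5 FPKM in the knockdown libraries and 260.4 FPKM in the control. RHAG alone made up most of these sums, and the 10 others summed to 46.6 and 59.5 FPKM in the knockdown libraries and 52.3 FPKM in the control, on both sides of it. Of 14 red cell markers with HBA1, HBA2 and HBB included, 9 were measured. Of these 9, 4 were higher in both knockdown libraries, as were 42.5% of all genes measured, and 2 were lower in both. HBA1 and HBA2 were the 2 called by limma-voom. SLC4A1, the band 3 anion exchanger, was at 0.225 and 0.563 FPKM in the knockdown libraries and 1.05 FPKM in the control. The part of red cell marker level in the globin values was not tested. Markers of other blood cells were low: 6 megakaryocyte genes summed to 2.35 and 3.74 FPKM in the knockdown libraries and 4.48 FPKM in the control, with PF4 and GP9 at 0, and 6 lymphoid genes to 1.88, 2.76 and 2.92 FPKM, with MS4A1 at 0. The 6 myeloid genes summed to 7.41 and 6.28 FPKM in the knockdown libraries and 13.2 FPKM in the control, with ELANE at 0. Of these, AZU1, the granule protein azurocidin, was at 1.30 and 2.24 FPKM in the knockdown libraries and 5.02 FPKM in the control, and fell by limma-voom (adjusted p = 0.0397) but not by limma (adjusted p = 0.403). The 6 stromal and epithelial genes were not low, through KRT8, KRT18, VIM and EPCAM, and summed to 257.8 and 246.6 FPKM in the knockdown libraries and 244.0 FPKM in the control. COL1A1 and COL1A2, the chains of type I collagen, were under 1 FPKM in all 3 libraries. The 6 progenitor genes summed to 81.2 and 78.7 FPKM in the knockdown libraries and 91.5 FPKM in the control.

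The genes whose pattern lay closest to HBA1 were sought among 6412 protein-coding genes averaging 5 FPKM or more, with all globin genes left out. The measure was the Euclidean distance between the pair of differences from the control, 1.93 and 1.66 on the log2(FPKM + 1) scale for HBA1. HBA2, left out as a globin gene, had differences of 1.55 and 1.14, nearer to HBA1 than those of POLR2L (1.37 and 1.04). All values rest on 3 libraries with a shared control, and the distances are a description. POLR2L, which encodes a small common subunit of RNA polymerases I, II and III, came first at a distance of 0.844, with 145.0 and 115.0 FPKM in the knockdown libraries and 55.6 FPKM in the control. ID3 (0.885) and ID1 (1.11), inhibitors of basic helix-loop-helix factors, followed. ID3 was at 22.4 and 12.9 FPKM in the knockdown libraries and 6.76 FPKM in the control, and ID1 at 31.1, 22.2 and 12.4 FPKM. SSSCA1 (1.15) and NDUFAF8 (1.18), an assembly factor of respiratory complex I, completed the 5, with 32.4 and 38.0 FPKM in knockdown 1, 25.8 and 31.9 FPKM in knockdown 2, and 14.1 and 17.4 FPKM in the control.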

How the data were processed

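The authors deposited FPKM values for 58735 Ensembl genes in each of 3 libraries. Per the submitters' processing notes, BWA, Bowtie and the build hg19 were used, with no roles given. The counting software is not given in the sources used. All identifiers matched GENCODE release 29 on GRCh38, which gives the coordinates here. FPKM multiplied by the exon lengths of that release gave whole reads for 100% of values above 0 (within 0.05), and the implied library scaling equalled median-of-ratios factors, 0.963 and 1.01 in the knockdown libraries and 1.04 in the control.

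The main test was limma 3.58.1 (R 4.3.3) with an intensity trend. It used log2(FPKM + 1) of the genes averaging 1 FPKM or more ("measured"), with Benjamini-Hochberg adjustment over all of them at 0.05; this scale understates changes of low genes. limma-voom used recovered reads (mean of at least 10). Levels carry exact 95% Poisson intervals. Both tests were also run on simulated data, with changes larger than the fitted globin fold changes and a spread set in advance. That check does not bear on differences of the size seen here. The globin genes and the gene lists were chosen with earlier results of these data known. All globin genes are named, and from each list the 4 measured members with the lowest p, with those called; CD34, CD38, NPRL3, RHAG, SLC4A1, KLF1, BCL11A, ZBTB7A, AHSP, OR51B5 and AC104389.5 were added. Sequences are those of the GRCh38 reference, for the shortest principal transcript.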

Additional observations from a re-analysis of the deposited data

How the results depend on the processing

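The alternatives were median-of-ratios rescaling, quantile normalization, other filters and pseudocounts, no intensity trend, limma-voom on recovered reads, summed copies, and each knockdown library alone, which gives values with no test. Chosen after seeing the data were scaling to all assigned reads, limma-voom with summed copies, and the count of higher genes without each knockdown library. The fold changes of the 7 globin genes averaging 1 FPKM or more were positive under each alternative that tested them; HBB, HBE1 and HBM were not followed across the limma settings. Calls over all genes were 0 by the main limma test, 3 with a mean of at least 5 FPKM, 126 by limma-voom and 125 by limma-voom with summed copies. HBA1 passed with a mean of at least 5 FPKM, where fewer genes are tested (1.80, adjusted p = 0.00912), and by limma-voom (1.82, or 1.64 with copies summed); its adjusted p under the other limma settings lay between 0.149 and 0.649. HBA2 (1.37) and HBZ (0.86, with or without copies summed) passed by limma-voom alone, as did HBG1 (1.07, or 0.91 with copies summed). The cause of the gap between both tests was not tested. Scaled to all assigned reads, the summed ratio of knockdown to control was 2.03 for the alpha-like and 1.65 for the beta-like genes. Without knockdown 1, the count of globin genes above the control was 9 rather than 8, since HBB then joined. Of the other alternative values, 93 planned and 12 added ones kept their direction and, where tested, their side of the threshold. No paired analysis was possible because the single control shares a number with at most 1 knockdown library. The single control sets every ratio, and HBM, HBE1, HBD and HBB, with at most 40 reads in any library, are limited by few reads. For HBE1, with 96 of 961 exon bases outside other genes, and HBM, with 506 of 916, the unknown handling of shared reads is a further limit.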
